A study of Mus musculus with 4 samples.

Results

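The genes of retinoic acid synthesis and reception were followed in mouse Langerhans cells, the dendritic cells that reside in the epidermis, after exposure to TCDD (2,3,7,8-tetrachlorodibenzo-p-dioxin), a potent activating ligand of the aryl hydrocarbon receptor (AhR). The 10 genes were fixed by name: the retinoic acid receptors Rara, Rarb and Rarg, the retinoid X receptors Rxra and Rxrb, the retinaldehyde dehydrogenases Aldh1a1, Aldh1a2 and Aldh1a3, the retinol acyltransferase Lrat and the binding protein Crabp2. Every probe set that the platform annotation assigns to exactly 1 of these symbols was taken, which gave 14 of the 22626 non-control probe sets on the array, for 10 of 12393 genes with a symbol of their own. Each probe set is shown separately.

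The study hybridised 4 samples, each to its own one-colour Affymetrix array. TCDD 1 and TCDD 2 came from mice given 10 µg TCDD, the second in DMSO and oil and the first in oil, into the peritoneum in a volume of 100 µl, and control 1 came from mice given DMSO and olive oil. Control 2 is a control by its description, but its treatment protocol names TCDD. Differences without it are given only for the tested probe sets of the genes above. For the other genes named below, the signal on each control is listed, and their differences include control 2. All cells were isolated 24 h after the injection and sorted to a stated purity of 95%. TCDD 1 and control 1 name no skin site, TCDD 2 and control 2 name back skin, and the controls also carry different experiment dates, so that the effects of site and of experiment cannot be told apart. Either array pair is called a preparation. The sources used here give no strain, sex, age or number of animals, and nothing says that arrays of a group came from separate animals, so the p-values reflect variation among these arrays, which may be technical.

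The arrays were alike in scale, with median signals from 164.9 to 188.2, but not in RNA quality. For the actin controls, the 3′ signal divided by the 5′ signal gave 3.48 on TCDD 1, 7.71 on TCDD 2, 49.7 on control 1 and 4.64 on control 2. Each marker gene was read by its brightest probe set, a choice that favours passing the signal filter. All 10 Langerhans cell genes listed passed the filter, the lowest value being 115.3 for Itgax. So did 7 of 7 melanocyte markers and 7 of 9 T cell markers with a probe set. Passing therefore does not set the Langerhans cell markers apart. The summed signal of the Langerhans cell markers was 45764 and 44473 on TCDD 1 and 2, against 37832 and 58639 on controls 1 and 2. Single Langerhans cell markers differed in spread, with a highest to lowest ratio from 1.33 for Epcam to 5.01 for H2-Eb1. H2-Eb1 had 1404 on control 1 and 7042 on control 2. The ratio was 1.38 for Csf1r and 3.40 for Cd207. Cd207 had 5343 and 2155 on TCDD 1 and 2, against 2120 and 7211 on controls 1 and 2. Of 13 keratinocyte markers with a probe set, 6 passed the filter, and 0 were listed at a signal of 0, the lowest being Ivl from 5 to 8.9. The keratinocyte sum was 1397 and 1974 after TCDD, against 1628 and 1552 in the controls. The T cell sum, over 9 markers, was 1541 and 812.3 after TCDD, against 819.9 and 2278 in the controls. The sums ranged from 1405 to 1627 after TCDD and from 1550 to 1966 in the controls for 7 melanocyte markers, from 1024 to 1176 after TCDD and from 1137 to 1385 in the controls for 9 fibroblast and endothelial markers, and from 597 to 762.9 after TCDD and from 547.2 to 655.9 in the controls for 6 mast cell, granulocyte and monocyte markers. In such bulk samples, fewer cells of a type and less RNA per cell cannot be told apart.

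Retinoic acid is made from vitamin A in the cell that uses it or in a neighbour. Retinol is stored as esters made by Lrat or oxidised to retinaldehyde, and the Aldh1a enzymes turn retinaldehyde into retinoic acid, the irreversible step. Crabp2 carries retinoic acid to the nucleus, where a heterodimer of an RAR and an RXR, already bound to DNA at repeated half-sites, switches from repression to activation of its target genes. Dendritic cells of the gut and of the skin are known as a source of retinoic acid for T cells, and Rarg and Rxra are known as the main receptors of keratinocytes.

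Promoter windows are shown for Rarb, the receptor gene that is a classic retinoic acid target, and for Rarg, the receptor gene with the largest tested difference between the groups. The sequences are the 250 bases before an annotated transcript start, from RefSeq (GRCm38.p6). Of the 10 genes, 8 had 15 such windows, and Aldh1a3 and Crabp2 are named only. Both strands were searched for direct repeats of retinoid half-sites spaced by 1, 2 or 5 bases (DR1, DR2 and DR5), and for GCGTG, the core letters of an AhR element. The window of Rarb lies at chr14:16575477-16575726, minus strand, and that of Rarg, 1 of its 2 windows, at chr15:102246501-102246750, minus strand. Capitals mark the DR5 repeat and each GCGTG or its reverse complement.
Rarb: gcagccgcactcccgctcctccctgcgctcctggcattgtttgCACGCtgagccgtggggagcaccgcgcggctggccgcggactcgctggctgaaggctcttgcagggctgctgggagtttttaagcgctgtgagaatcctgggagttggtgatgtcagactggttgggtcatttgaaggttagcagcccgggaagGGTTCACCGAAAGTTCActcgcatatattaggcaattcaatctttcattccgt
Rarg: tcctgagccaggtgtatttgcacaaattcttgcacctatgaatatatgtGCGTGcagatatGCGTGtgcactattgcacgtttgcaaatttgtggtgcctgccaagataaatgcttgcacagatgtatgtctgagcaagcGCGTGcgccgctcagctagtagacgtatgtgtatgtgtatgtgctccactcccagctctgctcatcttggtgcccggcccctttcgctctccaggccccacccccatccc

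The Rarb window held a DR5 repeat from 53 to 37 bases before the start, and was the only one of the 15 windows with a DR5, which 0.0883% of 32851 windows of the same length in all genes held. DR1 and DR2 were found in 0 of the 15, against 0.164% and 0.174% of all windows. The letters GCGTG were found in 7 of the 15 windows, those of Rara, Rarb, Rarg, Rxrb, Aldh1a2 and Lrat, against 28.2% of all windows. The Rarg window printed here held them at 3 places, beginning 201, 189 and 110 bases before the start, and its other window held none. A match of letters is a description of the sequence and not a bound site.

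For a test across the table a probe set had to reach a geometric mean signal of 115.4, the 40th percentile of all probe sets, and 4 of the 14 probe sets did so, all of them of receptors: 1 of Rarg, both of Rxra and that of Rxrb. Rarb lay just below the filter with a geometric mean signal of 114.3, and the nearest above it was Rarg at 180.5. The 7 probe sets of Aldh1a1, Aldh1a2, Aldh1a3, Lrat and Crabp2 gave 28 signals, all of them under the 40th percentile of their own array. Detection calls are not used here, so a dim signal is given as a signal and not as absence of the transcript.

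**Figure D1:**
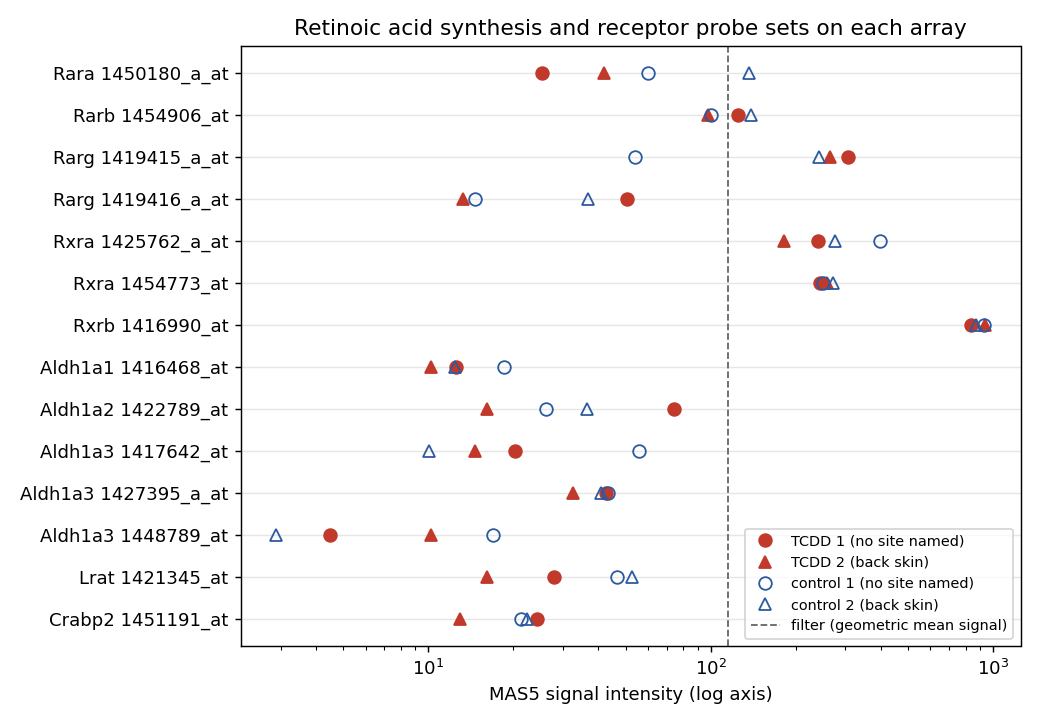
MAS5 signal intensity (log axis) of the 14 probe sets on the 4 arrays, with TCDD arrays filled and control arrays open, circles for no site named and triangles for back skin, and the dashed line at the filter of 115.4. The Rxrb signals lie between 837.4 and 937.7, and the single low Rarg value by 1419415_a_at is control 1 at 54.2.

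Rarg, the receptor that mediates much of the retinoic acid response of the epidermis, gave the largest difference among the tested probe sets. By probe set 1419415_a_at it had a signal of 306.4 on TCDD 1 and 264.7 on TCDD 2, against 54.2 on control 1 and 241.6 on control 2. Both TCDD arrays were above both controls, but control 1 alone was low, and control 2 was close to the TCDD arrays. The log2 difference, TCDD minus control, was 1.32 ± 0.56 (SE, n = 2 per group), a 2.49-fold higher geometric mean, with a 95% interval from 0.040 to 2.59, and it did not pass the test (limma, unadjusted p = 0.0445, adjusted p = 0.9999). Over all 13576 probe sets tested, 0% passed at an adjusted p of 0.05 and 1.47% had an unadjusted p under 0.05. Within the preparations the log2 ratio of TCDD to control was 2.50 where no site was named and 0.13 for back skin.

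The Rarg difference rested on control 1. Without that array, which had the highest 3′ to 5′ ratio, it was 0.24 ± 0.35 (limma, adjusted p = 0.998), where 0.0884% of probe sets passed. Without control 2, the array with conflicting labels, it was 2.39 ± 0.43 and passed (limma, adjusted p = 0.0023), where 2.1% of all probe sets passed. Each of these fits has a lone control, assumed to vary like the TCDD arrays. Without TCDD 1 or TCDD 2 it was 1.21 and 1.42, and 0% of all probe sets passed in either fit. The second Rarg probe set, 1419416_a_at, lay below the filter and had signals of 50.5 and 13.3 on TCDD 1 and 2, against 14.7 and 36.9 on controls 1 and 2. Its groups overlapped, and its log2 ratios were 1.78 where no site was named and -1.47 for back skin, so that the probe sets disagreed in back skin. The part of RNA quality in these values was not tested.

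**Figure D2:**
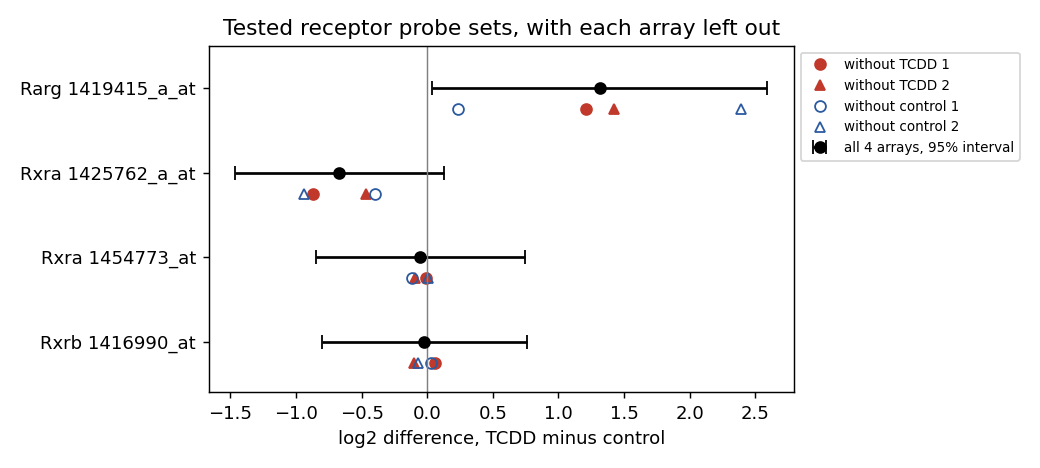
Log2 difference, TCDD minus control, of the 4 tested probe sets with its 95% interval over all 4 arrays (black), and below it the value with each array left out (filled for a TCDD array, open for a control). Rarg moves between 0.24 without control 1 and 2.39 without control 2, while Rxrb and Rxra by 1454773_at stay near 0.

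Rxra, the dimerization partner of the RARs and of several other nuclear receptors, had 2 tested probe sets with unlike point differences. By 1425762_a_at its signal was 239.9 and 181.6 on TCDD 1 and 2, against 399.3 and 275.6 on controls 1 and 2. Both TCDD arrays were below both controls, and TCDD was the lower in each preparation, with log2 ratios of -0.74 where no site was named and -0.60 for back skin. The difference was -0.67 ± 0.35 (SE, n = 2 per group), with a 95% interval from -1.46 to 0.13, and did not pass the test (limma, unadjusted p = 0.0889, adjusted p = 0.9999). It was between -0.94 and -0.40 with any 1 array left out. By 1454773_at the signal was 244.2 and 257.6 on TCDD 1 and 2, against 249.2 and 271.1 on controls 1 and 2, a difference of -0.051 ± 0.35 with overlapping groups and a highest to lowest ratio of 1.11 over the 4 arrays. The same gene thus varied little in signal by 1 probe set and was lower after TCDD, without passing the test, by the other. The 95% interval by 1454773_at ran from -0.85 to 0.75 and holds the -0.67 of 1425762_a_at. The 2 probe sets are therefore not shown to differ.

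Rxrb, the RXR found in most tissues, varied little between arrays. Its signal was 837.4 and 937.7 on TCDD 1 and 2, against 930.7 and 870.5 on controls 1 and 2. The groups overlapped, the highest value was 1.12 times the lowest, and the difference was -0.023 ± 0.34 (SE, n = 2 per group) with a 95% interval from -0.80 to 0.76. The 4 arrays thus bound a change of Rxrb only to that interval.

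Rarb, which is itself induced by retinoic acid through the repeat shown above, had signals of 125.3 and 98.2 on TCDD 1 and 2, against 100 and 138.9 on controls 1 and 2. The groups overlapped, and the highest value was 1.41 times the lowest. Rara, the RAR most often found in blood-derived cells, had 25.2 and 41.8 on TCDD 1 and 2, against 60 and 136.6 on controls 1 and 2. Both TCDD arrays were below both controls, with log2 ratios of -1.25 where no site was named and -1.71 for back skin, but 3 of the 4 signals were under the 40th percentile of their array. In a fit of all 22626 probe sets without the filter the Rara difference was -1.48 ± 0.63 (SE, n = 2 per group; limma, unadjusted p = 0.0585, adjusted p = 1).

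The enzymes of synthesis and storage were dim on every array. Aldh1a2, the main retinaldehyde dehydrogenase of dendritic cells that make retinoic acid, had 74 and 16.1 on TCDD 1 and 2, against 26.2 and 36.6 on controls 1 and 2. TCDD 1 was the highest and TCDD 2 the lowest of these values, and the log2 ratios were 1.5 where no site was named and -1.18 for back skin. Aldh1a1, an enzyme of the same step in many epithelia, had 12.5 and 10.2 on TCDD 1 and 2, against 18.5 and 12.4 on controls 1 and 2. Its TCDD 1 value lay just above that of control 2, so the groups overlapped.

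The 3 probe sets of Aldh1a3, the third enzyme of this step, did not move together. By 1427395_a_at it had 42.7 and 32.7 on TCDD 1 and 2, against 43.5 and 41 on controls 1 and 2. By 1417642_at it had 20.3 and 14.7 after TCDD, against 55.7 and 10.1 in the controls, and by 1448789_at it had 4.5 and 10.2 after TCDD, against 17 and 2.9 in the controls, each in the order of replicates 1 and 2. By 1417642_at and 1448789_at control 1 was the highest and control 2 the lowest, so both TCDD arrays lay between the controls.

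Lrat, which esterifies retinol for storage, had 27.8 and 16.2 on TCDD 1 and 2, against 46.7 and 52.5 on controls 1 and 2. Both TCDD arrays were below both controls, with log2 ratios of -0.75 where no site was named and -1.70 for back skin, at signals between the 9.66th and the 23.2nd percentile of their arrays. Without the filter its difference was -1.22 ± 0.70 (SE, n = 2 per group; limma, unadjusted p = 0.133, adjusted p = 1). Crabp2 had 24.3 and 13 on TCDD 1 and 2, against 21.3 and 22.4 on controls 1 and 2, with overlapping groups.

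Across the 14 probe sets the directions were mixed. Both TCDD arrays were above both controls in 1, the tested Rarg probe set, where 12.8% of all 22626 probe sets did so. Both were below both controls in 3, those of Rara, Lrat and Rxra by 1425762_a_at, where 14.9% of all probe sets did so, and the groups overlapped in 10. By preparation, 1 probe set was higher after TCDD in both, 6 were lower and 7 differed in sign, against 19.9%, 23% and 56.8% of all probe sets. The median log2 difference was -0.13 over the 14 and -0.012 over all probe sets. TCDD 2 was the lowest of the 4 arrays for 8 of the 14, and for 25.2% of all probe sets. With 10 of the 14 below the filter, these counts describe mostly dim signals.

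**Figure D3:**
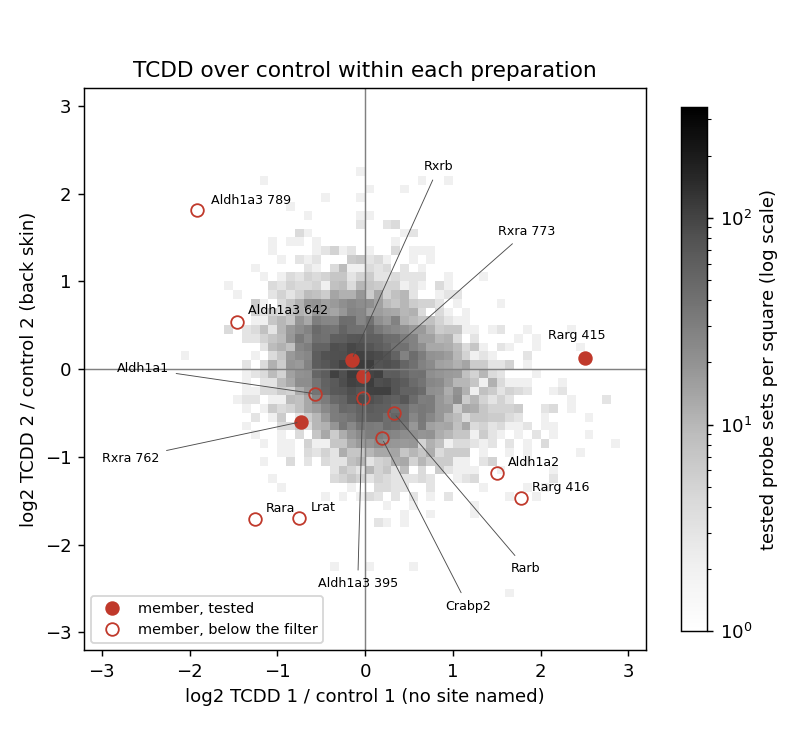
Log2 ratio of TCDD 1 to control 1 (horizontal) and of TCDD 2 to control 2 (vertical) for the 14 member probe sets, filled where tested, over the density of all tested probe sets in grey. The number after a repeated gene name is the end of its probe set number, and 31 tested probe sets lie outside the axes. The tested Rarg probe set is at 2.50 and 0.13, far to the right but close to the horizontal axis, and Rara and Lrat lie low in both directions.

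The test was passed by 0 of the 4 member probe sets over the 4 arrays, and 1 of them, Rarg, had an unadjusted p under 0.05 (limma). Of all 13576 probe sets tested, 0% passed and 1.47% had such a p. Without the filter, 0 of the 14 passed and 0 had an unadjusted p under 0.05, among 22626 probe sets of which 0 passed and 514 had such a p (limma). The median 95% interval over the tested probe sets reached 0.83 log2 units to either side.

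The labels' second contrast, back skin against the other preparation, addressed the origin of the cells, or of the experiment, as a source of difference. Of the 4 tested probe sets, 0 passed (limma, smallest adjusted p of all probe sets 0.9994) and 0 had an unadjusted p under 0.05, against 0% and 2.02% of all probe sets. For Rarg by 1419415_a_at the difference, back skin minus no site named, was 0.97 ± 0.56 (SE, n = 2 per group), made up of a log2 ratio of -0.21 between the TCDD arrays and 2.16 between the controls. Without control 1 it was -0.28, the opposite sign. Over the 14 probe sets, both back skin arrays were above both others in 1, Rxra by 1454773_at, where 17.5% of all probe sets did so. They were below in 3, those of Aldh1a1 and Aldh1a3 by 1417642_at and 1427395_a_at, where 15% of all probe sets did so.

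The wider retinoid pathway was read from lists of 70 other genes, of which 57 had 92 probe sets with a single symbol and 33 genes had 44 tested probe sets. Over the 4 arrays 0 of the 44 passed the test (limma), and 1 had an unadjusted p under 0.05, against 0% and 1.47% of all tested probe sets. Of the 44, 6 had higher TCDD values in both preparations, 15 had lower ones and 23 differed in sign, against 19.3%, 21.3% and 59.3% of all tested probe sets, and their median log2 difference was -0.11, against -0.0064 for all tested.

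Of the carriers and uptake proteins, 3 probe sets were tested, of which 1 was higher and 1 lower after TCDD in both preparations. Fabp5 is a fatty acid binding protein of the epidermis that also carries retinoic acid. By 1416022_at Fabp5 had a signal of 2271 and 2824 on TCDD 1 and 2, against 1168 and 2009 on controls 1 and 2, a difference of 0.73 ± 0.34. By 1416021_a_at Fabp5 had 14262 and 22866 after TCDD, against 16118 and 14666 in the controls, a difference of 0.23 ± 0.31 with the preparations in opposite directions. Crabp1, the other cellular retinoic acid binding protein, lay below the filter with 42.4 and 41.4 on TCDD 1 and 2, against 7.9 and 25.6 on controls 1 and 2.

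The enzymes that interconvert retinol and retinaldehyde had 12 tested probe sets from 10 genes. Of these, 1 was higher and 5 were lower after TCDD in both preparations, against 19.3% and 21.3% of all tested probe sets. Their differences had a median of -0.21 and a range from -0.41 to 0.23. Rdh10, the retinol dehydrogenase that is limiting in the embryo, had 522.2 and 713.1 on TCDD 1 and 2, against 743.9 and 506 on controls 1 and 2, a difference of -0.0078 ± 0.38. The lowest of the range was Adh5, with 3144 and 3014 on TCDD 1 and 2, against 4557 and 3648 on controls 1 and 2 (-0.41 ± 0.33). Both genes were named after their values were seen.

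Among the genes of ester handling, carotenoid cleavage and other dehydrogenases, 1 of 6 tested probe sets was higher and 2 were lower in both preparations. Bco1, which splits beta-carotene into retinaldehyde, had 202.2 and 285.9 on TCDD 1 and 2, against 184.2 and 97.2 on controls 1 and 2 (0.85 ± 0.46). Lpl, a lipoprotein lipase that also releases retinol from esters, had 132.4 and 141.6 after TCDD by its tested probe set, against 219.7 and 173.4 in the controls (-0.51 ± 0.41). Both were named for a large difference of the same sign in the 2 preparations. Their TCDD and control arrays did not overlap, which that choice favours. Of all 13576 tested probe sets, 1685 had both TCDD arrays above both controls and 1795 had both below. Neither gene passed the test (adjusted p = 0.9999 by limma for each).

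Of the other receptors and RXR partners, 2 probe sets were tested, and Nr1h3, the oxysterol receptor LXR alpha, was lower in both preparations, with 144.7 and 139.8 on TCDD 1 and 2, against 152.2 and 339.8 on controls 1 and 2 (-0.68 ± 0.44). Its control 2 value stood apart from the other arrays. Of 9 tested probe sets of corepressors and coactivators, 2 were higher and 1 was lower in both. By 1418469_at Nrip1, a ligand-dependent corepressor, had 213.4 and 193.2 after TCDD, against 135.6 and 176.1 in the controls (0.39 ± 0.40). By the brighter 1449089_at Nrip1 had 842.8 and 596.1 after TCDD, against 470.1 and 997.1 in the controls, a difference of 0.050 ± 0.43 with the preparations in opposite directions.

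Genes known to respond to retinoic acid gave 11 tested probe sets from only 6 genes, so the probe sets are not independent. Of the 11, 1 was higher and 5 were lower in both preparations, with a median of 0.0019. Of all tested probe sets, 19.3% were higher and 21.3% lower in both. Tgm2, a transglutaminase long used as a readout of retinoic acid, had 268.1 and 269.7 on TCDD 1 and 2 by 1417500_a_at, against 186.9 and 256.6 on controls 1 and 2 (0.30 ± 0.36), and its 5 tested probe sets ran from -0.42 to 0.30. Hoxb4, a homeobox gene, had 137.1 and 76.1 after TCDD by its tested probe set, against 163.8 and 148.5 in the controls (-0.61 ± 0.47), while its dim probe set 1451761_at differed the other way, with 99.9 and 131.2 after TCDD, against 75.6 and 21.9 in the controls. Itgb7, which pairs with Itga4 into the gut-homing integrin that retinoic acid induces on T cells, had 72.4 and 136.3 after TCDD, against 167.1 and 364.9 in the controls (-1.31 ± 0.41; limma, unadjusted p = 0.0118, adjusted p = 0.9999), beside the T cell marker sums given above, whose part in it was not tested.

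Cyp26a1, Dhrs3 and Stra6 lay below the filter, and are named after their values were seen. Cyp26a1, the enzyme that breaks retinoic acid down and is induced by it, had 57.6 and 45.9 on TCDD 1 and 2, against 73.2 and 100.1 on controls 1 and 2. Dhrs3, a retinaldehyde reductase induced by retinoic acid, had 31.2 and 109.6 after TCDD, against 19.1 and 53.1 in the controls, with overlapping groups. Stra6, the retinol uptake receptor, had 95.3 and 27.4 after TCDD, against 31.6 and 28 in the controls. These 3 genes were not tested. Of the breakdown genes 1 probe set was tested, that of Cyp2s1, a cytochrome P450, with 182.4 and 123.3 on TCDD 1 and 2, against 180 and 205.1 on controls 1 and 2 (-0.36 ± 0.42).

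**Figure D4:**
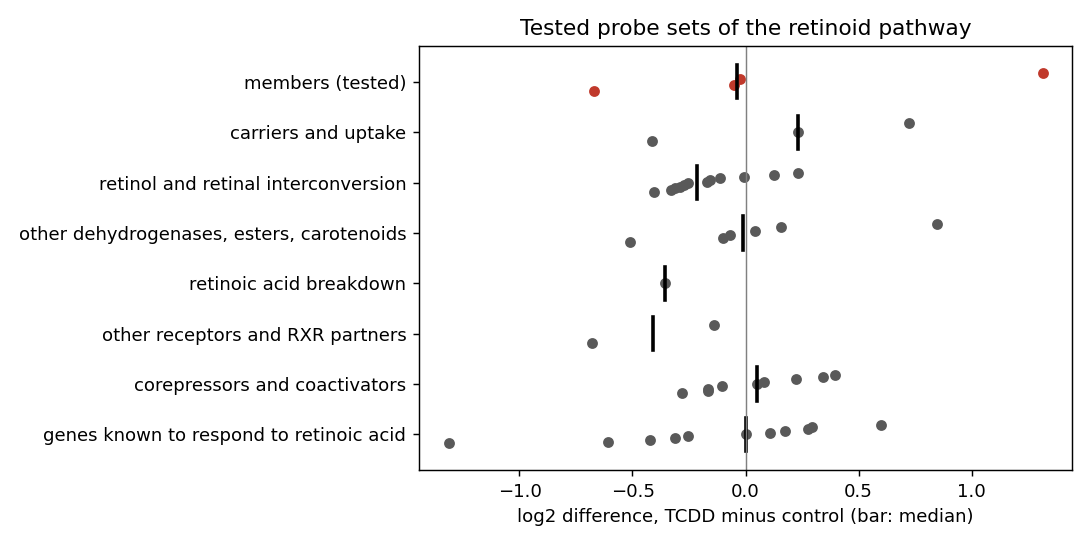
Log2 difference, TCDD minus control, of the tested probe sets of the members (red) and of each list of other retinoid genes (grey), 1 point per probe set, with the median as a black bar. Rarg at 1.32 and Itgb7 at -1.31 lie farthest from 0.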

How the data were processed

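The deposited table holds a linear signal intensity for each probe set on each array, made with affy and MAS5 per the submitters' processing notes (for which the sources used here give no version). Per the labels' protocols, Trizol RNA was amplified (MessageAmp) and biotinylated. Such amplification starts at the 3′ end, so a signal depends on RNA length. All 4 columns had a 2% trimmed mean of about 500 (499.7 to 499.8), so the arrays had been scaled by the authors.

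Signals were taken to log2. Of 22690 probe sets, 64 controls were set aside, and the 13576 of the other 22626 with a mean log2 signal at or above the 40th percentile (6.85) were fitted with limma 3.58.1 in R 4.3.3 (treatment plus preparation, eBayes with a variance trend, 1 residual degree of freedom, Benjamini-Hochberg over all tested, threshold 0.05). The code of the fit was checked on simulated data with independent noise and large differences, without unequal RNA quality or a preparation effect. These settings differ from those of the 4 arrays, so the check does not cover them. Precision is limited by the number of arrays, with a median standard error of 0.364 log2 units. An exact permutation test of 2 against 2 cannot give less than 0.333, so none was run. All 14 member symbols matched RefSeq (GRCm38.p6), used for names and promoter windows.

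The members and lists were chosen with earlier results of these data known. Named pathway genes were those past the test or, failing that, up to 4 tested probe sets per direction with the largest difference and the same sign in both preparations; others are named as dim readouts or after their values were seen. As a pairing check, the back skin over other log2 ratios of the controls and of the TCDD arrays were correlated over the 13576 probe sets, not independent of each other (Pearson's r = -0.18): same-preparation arrays did not deviate together. The alternatives tried were median centring, quantile normalization, a 60th percentile filter or none, a floor or an offset of 50, no variance trend, no preparation term, and each array left out.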

Additional observations from a re-analysis of the deposited data

Results flagged for a closer look

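For 7 of the 14 member probe sets the log2 ratio of TCDD to control had opposite signs in the 2 preparations, each ratio from 1 array per group; the difference between the preparations was not tested. Given for the unnamed site first and back skin second, the ratios were 0.33 and -0.50 for Rarb, 1.78 and -1.47 for Rarg by 1419416_a_at, and -0.15 and 0.11 for Rxrb. They were 1.5 and -1.18 for Aldh1a2, -1.46 and 0.54 for Aldh1a3 by 1417642_at, -1.92 and 1.81 for Aldh1a3 by 1448789_at, and 0.19 and -0.79 for Crabp2. Of these, Rxrb alone had passed the signal filter.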

How the results depend on the processing

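Over 102 values of the 4 tested probe sets under the alternatives, 94 kept their direction and their side of the threshold, 1 came to pass the test and 7 changed sign. The filters, the floor, no variance trend and the choices of block could not change these differences, only their standard errors. A kept direction under them was therefore fixed in advance. No member passed under any alternative that kept all 4 arrays. With 1 array left out, 0 to 285 probe sets passed for TCDD, of which 0 to 1 were members (Rarg, without control 2), and 0 to 89 passed for back skin, of which 0 were members. Without the preparation as a replicate block, 0 probe sets passed for TCDD and 0 for back skin (limma). Blocking on the crossed pairing, chosen after the data were seen, gave 10 for TCDD, with 0 members. The sign changes concerned differences near 0 and Rarg. With 1 array left out, the TCDD difference ranged from -0.11 to 0.0093 for Rxra by 1454773_at and from -0.10 to 0.059 for Rxrb, and the back skin difference from -0.28 to 2.22 for Rarg and from -0.043 to 0.11 for Rxrb, which was -0.029 with median centring; the cause was not tested. With the offset of 50, the Rarg difference for TCDD was 0.94. Fits with 1 array left out have 1 factor and a lone array in a group, and Rarg was not tested under the 60th percentile filter. Signal over background, for which no detection calls were used, limits what the 10 dim probe sets can show.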
